A study of Sus scrofa with 4 samples.

Results

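A set of 10 genes of the last stages of keratinocyte differentiation were examined in sorted pig epidermal cells, namely KRTDAP, SBSN, LY6D, IVL, TGM1, TGM3, CASP14, SPINK5, CDSN and FLG2. The members were chosen by gene name among the 29837 named genes of the count table, as genes of the cornified envelope, the transglutaminases and the late suprabasal layers. Of the 10 members, 9 had a row and all 9 passed the filter on low counts, while FLG2 was not analysed here. RNA was sequenced from epidermal cells of 2 juvenile LGR5-H2B-GFP pigs, 88R and 95R, and each pig gave 1 LGR5-high library (GFP-hi) and 1 LGR5-negative library (GFP-neg). Both populations carry the same knock-in, in which H2B-GFP, a histone fused to green fluorescent protein, sits in exon 1 of 1 LGR5 allele under its promoter, while the other allele is intact. The animals descend from edited fetal fibroblast clones by nuclear transfer, and neither the labels nor the methods say whether 88R and 95R were such clones or their progeny. LGR5 marks stem cells of the hair follicle bulge and outer root sheath, and cells of intermediate GFP were not among the libraries.

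Keratinocytes leave the basal layer, pass through the spinous and granular layers and die as corneocytes. On the way a cornified envelope forms under the plasma membrane, as transglutaminases crosslink precursors such as involucrin and loricrin, while caspase-14 processes filaggrin and corneodesmosin holds the corneocytes together until proteases cut it. The same enzymes also work in the hair follicle, where TGM3 crosslinks trichohyalin of the inner root sheath. For the comparison, KRTDAP, SBSN, LY6D, IVL and TGM1 were treated as early suprabasal members, and TGM3, CASP14, SPINK5, CDSN and FLG2 as late members. The place of IVL and TGM1 is less certain, so an alternative counted both as late.

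The 4 libraries held between 30696803 and 32463362 counts on named genes. Levels are given in CPM, a gene's count relative to the total of its library, scaled between libraries by the trimmed mean of M-values (TMM) in edgeR, and not divided by gene length. A fold change is LGR5-high over LGR5-negative on the log2 scale. The sorted gene itself, LGR5, gave 4551 counts (88R) and 6224 counts (95R) when sorted as high, and 36 and 109 when sorted as negative. Of 6 tested genes in the list of LGR5 and bulge markers 5 were higher, with SOX9 at 4.41, LHX2 at 6.35, CD34 at 4.62 and TCF3 at 0.46. NFATC1 was not called at 0.19. For CD34, the study's own RT-qPCR on sorted populations found no significant enrichment in LGR5-H2BGFP cells. The keratinocyte gene KRT5 was abundant in both populations, with mean values of 24580 and 27840 CPM, and was not called. With bulk RNA, fewer differentiated cells and less RNA per cell cannot be told apart in any of the values below.

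Of the 9 measured members, 6 were lower in LGR5-high, 1 was higher and 2 were not called. A gene was called where the quasi-likelihood test of edgeR, adjusted after Benjamini and Hochberg over 15980 tested genes, gave a p under 0.05. Among all tested genes 44.7% were called, 22.0% as lower and 22.7% as higher. Together the 9 members took 0.0821% and 0.102% of LGR5-high counts in 88R and 95R respectively, and 0.411% and 0.355% of LGR5-negative counts. The members thus ran from LY6D, with 14.2 times more mean CPM in LGR5-negative, to CDSN, with 18.5 times more in LGR5-high. LY6D and KRTDAP are also among the genes that the study chose to draw from these same libraries, so their direction is not independent evidence. All members were chosen with earlier results of these data known, so the share of members that was lower is not independent evidence either.

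**Figure D1:**
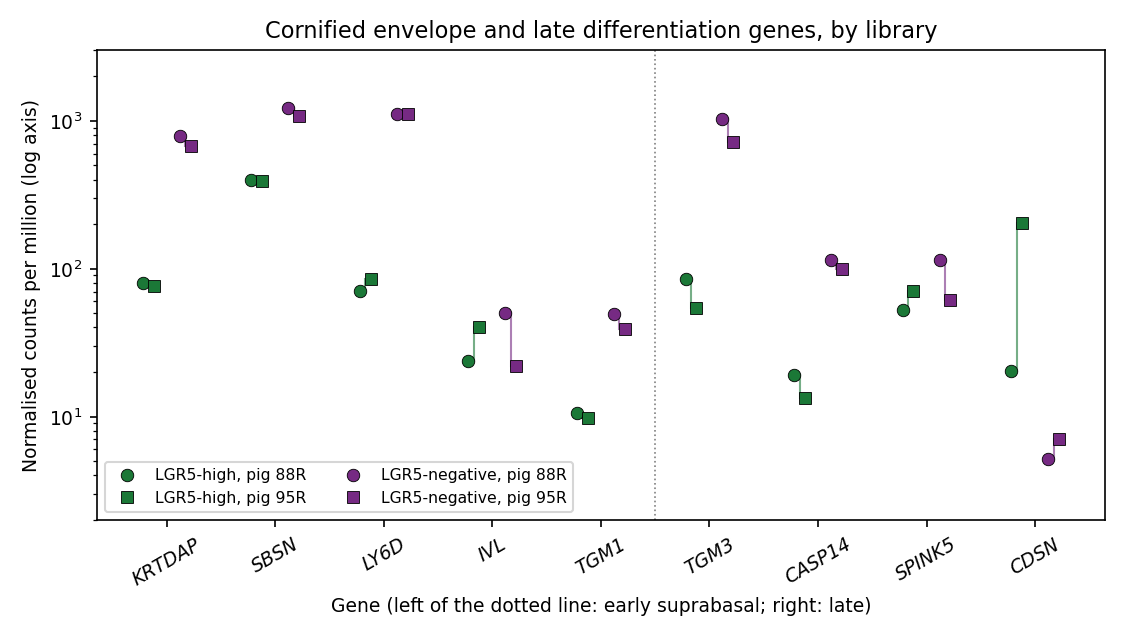
Normalised counts (CPM) of the 9 measured members on a log axis, with green for LGR5-high, purple for LGR5-negative, circles for pig 88R, squares for pig 95R, and a line joining the 2 libraries of a population. LGR5-negative is above LGR5-high in both pigs for KRTDAP, SBSN, LY6D, TGM1, TGM3 and CASP14, the populations overlap for IVL and SPINK5, and the LGR5-high library of pig 95R stands far above the others for CDSN.

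Among the early members, KRTDAP, which encodes a small secreted protein of differentiating keratinocytes, had 80.1 CPM in LGR5-high of pig 88R, 76.9 CPM in LGR5-high of pig 95R, and 792 and 674 CPM in the matching LGR5-negative samples. The populations did not overlap, and the pigs differed by little within each. KRTDAP had a log2 fold of -3.22 (standard error 0.112, edgeR adjusted p = 5.65e-05), and the pigs gave -3.31 (88R) and -3.13 (95R). LY6D, a GPI-anchored surface protein, gave 70.7 and 84.8 CPM in LGR5-high, against 1103 and 1112 CPM in LGR5-negative. It had the most negative fold change of the members, with a log2 value of -3.83 (standard error 0.121, edgeR adjusted p = 4.58e-05). SBSN, a secreted suprabasal protein, gave 395 and 394 CPM in LGR5-high, against 1218 and 1080 CPM in LGR5-negative. Its log2 fold change of -1.54 (standard error 0.0946, edgeR adjusted p = 1.86e-04) was the smallest of the 6 that fell.

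TGM1, the membrane-anchored transglutaminase of the granular layer, gave 10.6 (88R) and 9.81 CPM (95R) in LGR5-high, against 49.2 and 39.0 CPM in LGR5-negative. The populations did not overlap, and the log2 fold change was -2.11 (standard error 0.151, edgeR adjusted p = 2.89e-04). IVL encodes involucrin, an early scaffold of the envelope and a substrate of TGM1. It gave 23.9 and 40.6 CPM in LGR5-high, against 50.0 and 22.1 CPM in LGR5-negative. Both the highest and the lowest value of IVL were LGR5-negative ones, so the populations overlapped. Its log2 fold change was -1.06 for 88R, 0.88 for 95R, and -0.16 for both (standard error 0.419, edgeR adjusted p = 0.78). IVL was thus not called.

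Among the late members, TGM3, the soluble transglutaminase that is activated by proteolysis, gave 84.9 and 54.5 CPM in LGR5-high, against 1023 and 717 CPM in LGR5-negative. Pig 95R was lower in both populations, at 0.642 and 0.701 of the level in pig 88R. TGM3 had a log2 fold of -3.64 (standard error 0.278, edgeR adjusted p = 3.54e-04), with -3.59 and -3.72 in pigs 88R and 95R. CASP14, the caspase of cornification, gave 19.2 and 13.3 CPM in LGR5-high, against 115 and 100 CPM in LGR5-negative. It was also somewhat lower in pig 95R in both populations, and its log2 fold change was -2.72 (standard error 0.189, edgeR adjusted p = 2.62e-04).

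SPINK5 encodes LEKTI, the inhibitor of the kallikrein proteases that cut corneodesmosomes. Its level was 52.6 (88R) and 70.7 CPM (95R) in LGR5-high, against 114 and 61.5 CPM in LGR5-negative. The LGR5-negative library of pig 88R stood above the rest, which lay close together. On the log2 scale the difference was -1.12 for 88R, 0.20 for 95R, and -0.51 for both (standard error 0.300, edgeR adjusted p = 0.215). Where the fit held the pig as a replicate block, the value was -0.46 and SPINK5 passed the threshold (edgeR adjusted p = 0.046), in a fit that called 27.2% of all genes lower and 28.5% higher. The same block in DESeq2 gave -0.46 without a call (adjusted p = 0.608). In edgeR SPINK5 was also called without the LGR5-negative library of pig 95R, at -0.90 (edgeR adjusted p = 0.00961). IVL and SPINK5 were the 2 members whose fold change had opposite signs in the pigs, beside 14.2% of all tested genes.

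CDSN, which encodes corneodesmosin, was the exception. Its LGR5-high counts were 694 (88R) and 6761 (95R), against 146 and 213 in LGR5-negative. These are 20.2 and 205 CPM in LGR5-high and 5.12 and 7.05 CPM in LGR5-negative, so both LGR5-high libraries were above both LGR5-negative libraries, but by very different amounts. Over the 2 pigs the mean ± SD was 112 ± 130 CPM with high and 6.09 ± 1.36 CPM with negative LGR5. Both pigs together gave a log2 fold change of 4.204 (standard error 1.08, edgeR adjusted p = 0.0238), and the pigs gave 1.97 (88R) and 4.85 (95R). Without the LGR5-high library of pig 95R it was 1.73 (edgeR adjusted p = 0.00962), and without that of pig 88R 5.06 (edgeR adjusted p = 4.32e-04). Leaving out the LGR5-negative library of pig 88R gave 3.99 and ended the call (edgeR adjusted p = 0.0591), as did limma-voom, at 3.4 (adjusted p = 0.147).

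The 2 LGR5-high libraries differed 10.1-fold for CDSN. Among the 9655 tested genes with a mean of at least 10 CPM, the median fold between the pigs was 1.08 in LGR5-high and 1.09 in LGR5-negative, and 0.0414% of genes exceeded CDSN in LGR5-high. IVL differed 1.70-fold between the pigs in LGR5-high and 2.26-fold in LGR5-negative, and 1.27% and 0.808% of genes differed more. SPINK5 differed 1.34-fold and 1.86-fold, with 5.86% and 1.92% of genes above it. At the other end, SBSN in LGR5-high and LY6D in LGR5-negative differed 1.00-fold and 1.01-fold. The populations did not overlap for 7 of the 9 members, 6 lower and 1 higher in LGR5-high, as was the case for 37.4% and 39.2% of all tested genes.

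**Figure D2:**
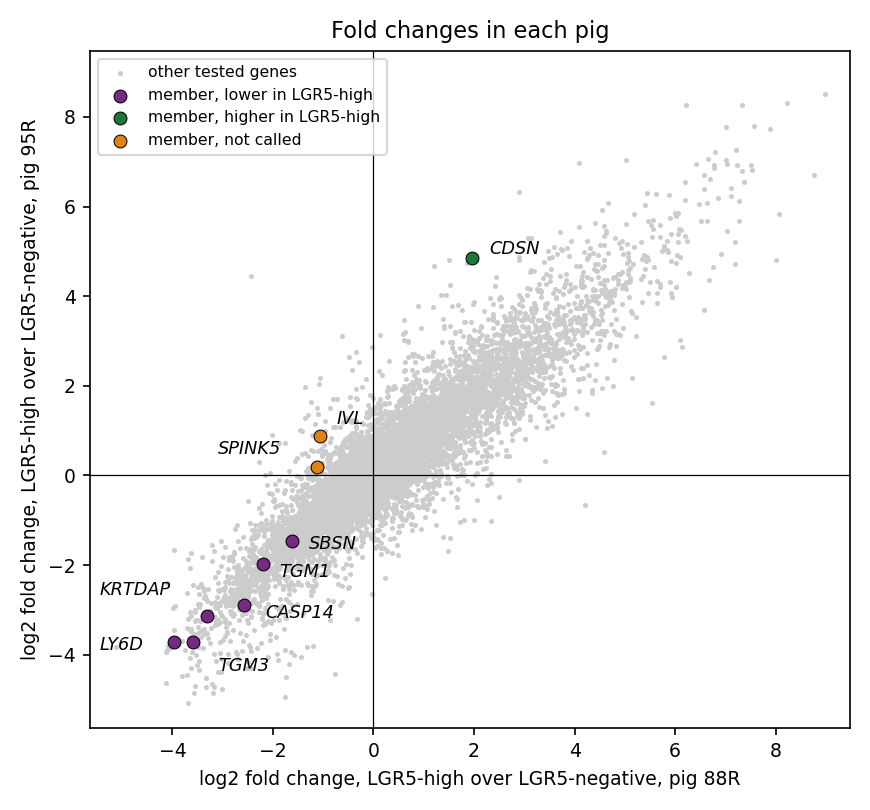
The log2 fold change of LGR5-high over LGR5-negative with pig 88R on the horizontal and pig 95R on the vertical axis, the 9 measured members named and the other tested genes in grey. The 6 lower members lie at lower left in both pigs, IVL and SPINK5 lie where the pigs disagree in sign, and CDSN lies at 1.97 on the horizontal and 4.85 on the vertical axis, above the bulk of the genes.

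The call of KRTDAP and LY6D held under all 15 alternatives tried, and that of SBSN under 14 of the 15. TGM1, TGM3 and CASP14 lost their call in 2 alternatives each, a Student's test of log2(CPM + 1) per gene and Bonferroni adjustment. Those 2 also ended the call of CDSN, which held under 11 of the 15, the fewest of the called members. Another scaling between libraries moved all genes alike, and with library size only the median of all tested genes was 0.24, against 0.02 with TMM. With library size only the log2 fold changes of the 6 lower members lay between -3.61 for LY6D and -1.32 for SBSN, and that of IVL was 0.07, so its sign changed.

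To compare late with early members inside each library, the mean log2(CPM + 1) of the early members was subtracted from that of the late members. This difference was -0.64 and -0.16 in LGR5-high (88R, then 95R), and -1.68 and -1.61 in the LGR5-negative libraries. It was thus higher in LGR5-high by 1.25 (SD 0.242 between pigs, exact permutation p = 0.333, 2-sided). That is the smallest p which 2 libraries against 2 allow, so the test cannot pass 0.05. This value rested on CDSN. Without CDSN it was -0.12 (exact permutation p = 1.0), and the pigs gave 5.05e-04 (88R) and -0.24 (95R). The log2 ratio of the summed CPM, in which the most abundant members weigh most, was higher in LGR5-high by 0.27 with all members and lower by -0.46 without CDSN (exact permutation p = 0.667 and 0.333). The early set held 4 members that fell and 1 that was not called, and the late set held 2 that fell, 1 that was not called and 1 that rose.

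**Figure D3:**
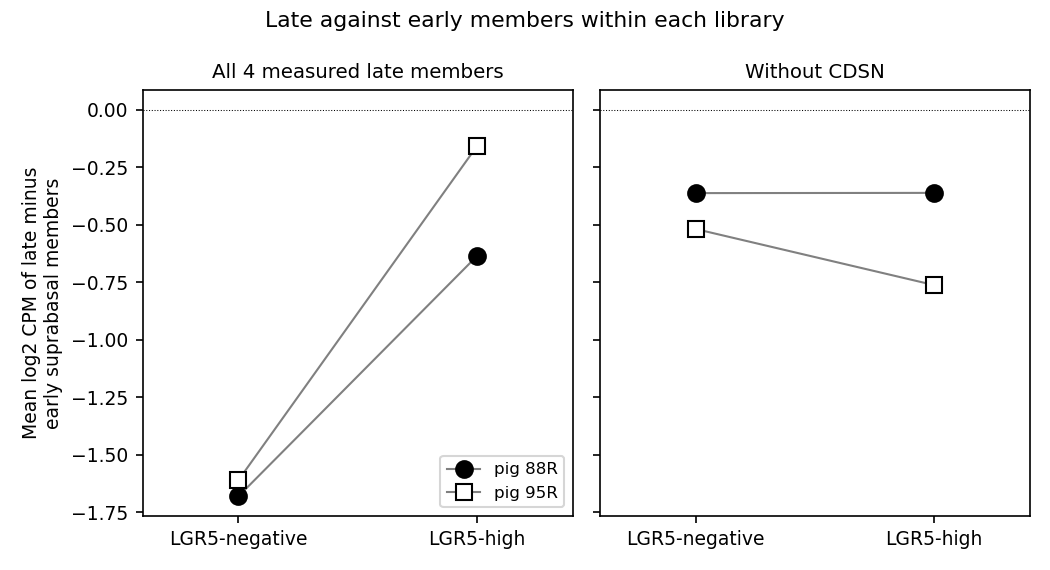
Mean log2 CPM of the late members minus that of the early suprabasal members in each library, with a line joining the libraries of a pig, filled circles for pig 88R and open squares for pig 95R. With all 4 measured late members the value rises from -1.68 and -1.61 to -0.64 and -0.16, while without CDSN it stays between -0.76 and -0.36 in all 4 libraries.

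Several members lie beside each other or beside related genes in the gene order of RefSeq (assembly Sscrofa11.1). Its coordinates were used only for the order of genes and for overlaps of their spans. KRTDAP and SBSN flank DMKN, which encodes the secreted dermokine, and the 3 genes have adjacent places in the order. DMKN was lower by a log2 value of -1.94 (standard error 0.146, edgeR adjusted p = 0.00034), between KRTDAP at -3.22 and SBSN at -1.54. Past SBSN, GAPDHS had -0.13 and was not called, and on the side of KRTDAP the free fatty acid receptor genes had too few counts to be tested. LY6D lies among genes of its family. Of its 6 nearest neighbours, 5 were tested and 4 were lower in LGR5-high, among them LY6E with -1.28 and the adjacent LOC110260197 with -1.94, while THEM6 was not called at -1.45. How reads shared between such related genes were counted is not given in the sources used here.

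Around the other members, TINF2 beside TGM1 and STK35 beside TGM3 were lower, at -0.55 and -1.18. Also lower were SLC1A6 near CASP14 at -2.87 and C2H5orf46 beside SPINK5 at -2.84. SLC1A6 had few counts, with 9 and 3 in LGR5-high and 47 and 30 in LGR5-negative. Higher genes lay near TGM1, where NEDD8 had 0.315, and near IVL and CDSN. RABGGTA, also beside TGM1, was not called. IVL lies in the epidermal differentiation complex. There SPRP, a small proline-rich gene, had -0.54 (edgeR adjusted p = 0.0532), the adjacent LOC106510150 had 50 and 51 counts in LGR5-high against 5 and 8 (log2 2.74, higher), LOC100157968 was higher by 1.38, and KPRP was not called at 0.34. On 1 side of CDSN the long noncoding RNA LOC110261492, whose span overlaps CDSN, had 49 and 252 counts in LGR5-high of pigs 88R and 95R, against 26 and 19 in LGR5-negative (log2 2.55, edgeR adjusted p = 0.0481). Since the strand setting of the counting is not given in the sources used here, reads of these overlapping genes cannot be told apart. The next gene on that side, C7H6orf15, had 11 and 50 counts in LGR5-high and 5 and 4 in LGR5-negative, and was not called. On the other side PSORS1C2, CCHCR1 and TCF19 had log2 fold changes of -0.08, -0.35 and 0.17 and were not called.

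**Figure D4:**
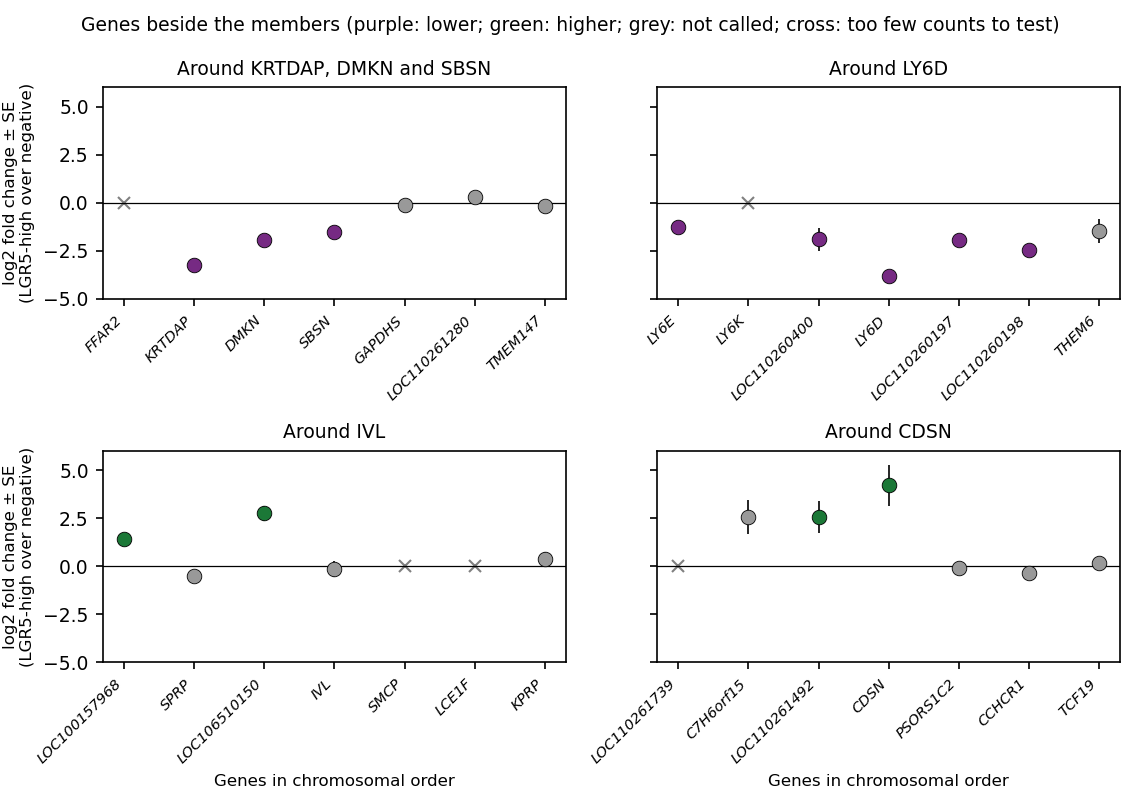
The log2 fold change with its standard error for the 3 genes on each side of SBSN, LY6D, IVL and CDSN in chromosomal order, with crosses for genes that had too few counts to test. The run KRTDAP, DMKN and SBSN and the genes around LY6D lie below 0, whereas around CDSN the noncoding LOC110261492 is higher with CDSN and the 3 genes on the other side lie near 0.

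Of the other genes listed with the cornified envelope, which are not all precursors, more were lower than higher. Of 51 listed genes, 21 had a row and 16 were tested, of which 10 were lower and 3 were higher in LGR5-high, with a median log2 fold change of -1.33 beside 0.02 for all tested genes. ECM1, a secreted matrix protein, had -2.50, ANXA1, an annexin of the envelope, had -1.49, and TRIM29 had -0.58. The plakins EVPL and PPL, named after their values were seen, had -1.09 and -1.32. The 3 higher genes were CRNN with 5.77, the inner root sheath gene TCHH with 4.00 and PRR9 with 1.33, and the last was named after its value was seen. CRNN encodes cornulin, a calcium-binding protein of the same complex as IVL, and had 1338 and 1182 counts in LGR5-high and 13 and 27 in LGR5-negative. LOR, the loricrin gene, also named after its values were seen, had between 42 and 84 counts in every library and was not called. HRNR, named likewise, and KPRP were not called either, at -1.64 and 0.34.

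Of the transglutaminase family, TGM1 and TGM3 were the 2 of 5 tested genes that were called. TGM2, the tissue transglutaminase, had 17 and 24 counts in LGR5-high and 8 and 4 in LGR5-negative. TGM5 and TGM6 had log2 fold changes of 0.23 and 0.53, at no more than 71 and 27 counts in any library. TGM6 is the neighbour of TGM3 in the gene order. In the family of LY6D, LY6D included, 6 of 10 tested genes were lower and 1 was higher, with a median of -1.13. LYPD3 had -0.98, and the higher gene, LYPD1, had 42 and 88 counts in LGR5-high and 1 and 0 counts in LGR5-negative.

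Around CDSN and SPINK5, the adhesion and protease lists held genes called in both directions. Of 10 corneodesmosome and desmosome genes tested, CDSN included, 3 were higher and 5 were lower. The desmosomal cadherin DSC1 had -3.22, opposite to CDSN, the plakophilin PKP1 had -0.86, and DSP was not called at -0.18. Of 19 desquamation proteases tested, 5 were higher and 7 were lower. KLK7, a kallikrein that cuts corneodesmosin, had 373 and 395 counts with high and 56 and 45 counts with negative LGR5 in pigs 88R and 95R, for a log2 value of 2.72 (standard error 0.220, edgeR adjusted p = 4.23e-04). KLK6 had 2.82, at 56 and 43 counts in LGR5-high and 4 and 8 in LGR5-negative. The transmembrane protease TMPRSS4 had -2.47, CTSV had -0.35 and CAPN1 was not called at -0.15. Of 15 protease inhibitors tested, SPINK5 included, 4 were higher and 4 were lower, shares near the 22.7% and 22.0% of all tested genes, from CST6, the cystatin of the cornified layer, with 2.51 to SERPINB2 with -3.14. SERPINB5 had -0.69.

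Of 12 cornification enzymes tested, CASP14 included, 4 were higher and 3 were lower, with CASP14 among the lower ones. Among all tested genes 22.7% were higher and 22.0% lower. PADI4 had 3.71 and PADI3 had 2.86, the second named after its value was seen, and both are peptidylarginine deiminases, which citrullinate proteins such as filaggrin and trichohyalin. The counts of PADI4 were 104 and 94 in LGR5-high and 5 and 8 in LGR5-negative. ENDOU, an endoribonuclease, had -3.05, next to CASP14 with -2.72. Of 8 early suprabasal genes outside the members, 7 were lower and the Notch target HES1 was higher, with a median of -2.0. The 2 most abundant of them, the suprabasal keratin genes KRT1 and KRT10, had log2 fold changes of -3.56 and -3.43, and HES1 had 0.47. KRT10 is among the most significantly lower genes that the study itself reported from these libraries, so its direction is not independent evidence. In the study's immunostaining, KRT10 protein did not co-localize with LGR5-H2BGFP. Of 7 tested granular layer genes 4 were lower and 2 were higher, with KRT2 at -2.96, KRT77 at -2.40 and KLK7 at 2.72. Of 18 regulators of terminal differentiation, 13 were lower and 1 was higher. KLF4, a factor needed for the barrier, had -1.56, EHF had -2.27, TP63, the master factor of stratified epithelium, was not called at -0.17, and the higher gene was ELF3 with 1.83.

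**Figure D5:**
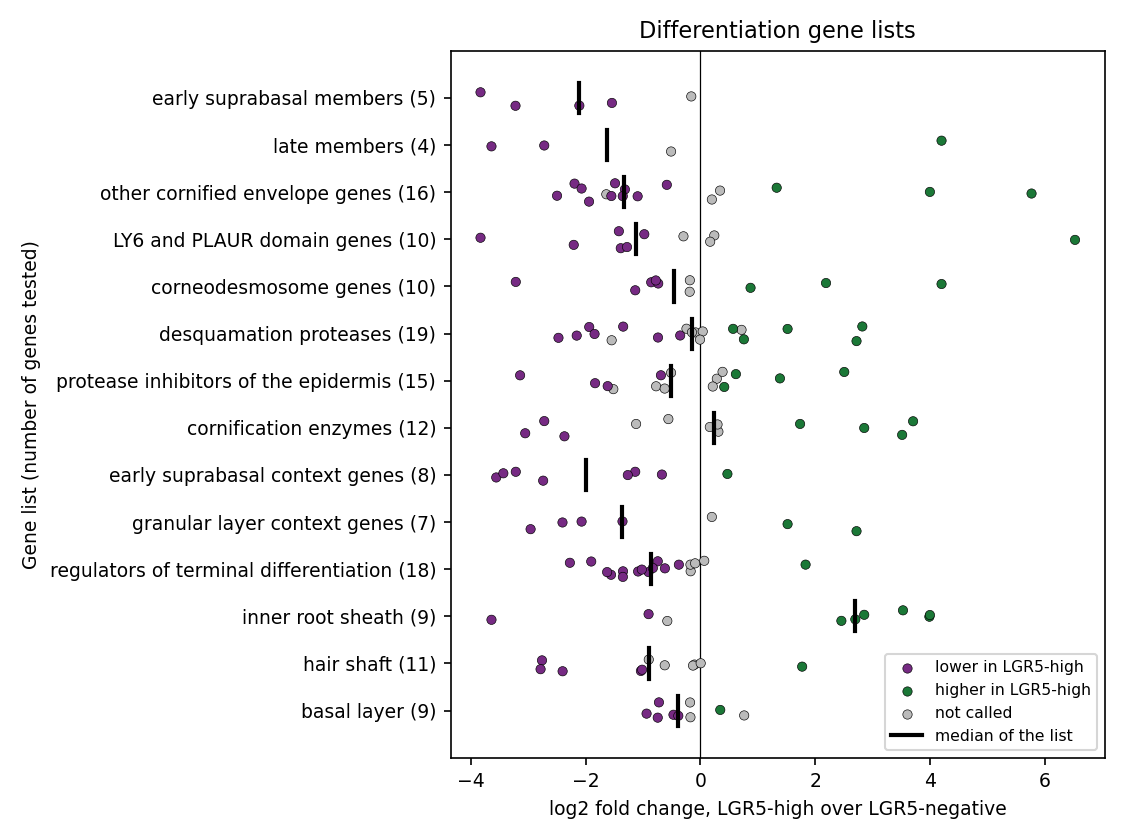
The log2 fold change of each tested gene in 14 lists, with purple for lower, green for higher and grey for genes not called, a bar at the median and the number of tested genes in brackets. The envelope, suprabasal and regulator lists lie mostly below 0, the protease, inhibitor and cornification enzyme lists spread to both sides, and the inner root sheath list lies mostly above 0.

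Since TGM3 also belongs to the inner root sheath, its values were set beside that list. Of 9 inner root sheath genes tested 6 were higher, and the 2 lower ones were TGM3 and the transcription factor gene GATA3, with -3.64 and -0.90. TCHH, whose protein TGM3 crosslinks, had 9635 and 8396 counts in LGR5-high and 344 and 642 in LGR5-negative, so that enzyme and substrate genes differed in opposite directions. Of 11 hair shaft genes 5 were lower and 1 was higher, with KRT35 at -2.40, SELENBP1 at -2.79 and HOXC13 at 1.77. Of 9 basal layer genes 5 were lower and 1 was higher, with a median of -0.385, COL17A1 at -0.47, ITGA6 at -0.94 and ITGB1 at 0.35.

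Markers of other cells also differed between the populations. Of 8 tested melanocyte genes, 5 were lower in LGR5-high and 3 were not called. The whole list summed to 64.2 to 64.5 CPM in LGR5-high and 86.7 to 264 CPM in LGR5-negative. DCT and MITF, the second named after its value was seen, made up most of the LGR5-high sum, and neither was called. DCT had 0.26 in pig 88R and -1.69 in pig 95R, and MITF had 0.30 over both. Of the Langerhans and other immune cell markers, 6 of 7 tested genes were lower, and the list had sums of 12.8 to 16.7 CPM and 187 to 271 CPM. CD3E, named after its values were seen, had 0 counts in both LGR5-high libraries and 1 and 2 in LGR5-negative, too few to be tested. Dermal fibroblast markers divided into 4 higher and 4 lower, with sums of 1250 to 1500 CPM in LGR5-high and 372 to 679 CPM in LGR5-negative. COL1A1, COL1A2 and THY1 made up most of the LGR5-high sum. The 4 lower genes were LUM, COL3A1 with -3.09, PDGFRA with -2.74 and DCN with -0.82. Of these, COL1A1, COL3A1, PDGFRA and DCN were named after their values were seen. Of endothelial and mural markers 2 of 7 were higher and 4 were lower, with sums of 12.6 to 13.4 CPM and 22.3 to 22.6 CPM. Sebaceous gland markers had 4 of 6 higher, with sums of 411 to 424 CPM in LGR5-high and 272 to 293 CPM in LGR5-negative. SCD, at 228 and 211 CPM in LGR5-high, and PLIN2, at 155 and 186 CPM and not called, made up most of the LGR5-high sum. AWAT2, and PPARG and DGAT2L6, both named after their values were seen, had no more than 18 counts in any library. The 3 erythrocyte genes reached at most 0.605 CPM in sum. No defining marker of the melanocyte, immune, fibroblast or endothelial list was at 0 in all 4 libraries, and AWAT1 of the sebaceous list was. Among the abundant and extreme genes of these lists, the melanosome genes PMEL and TYRP1 had -3.23 and -4.54, and the antigen presentation genes CD74 and SLA-DRA had -3.94 and -4.39. COL1A2 and THY1 of the fibroblast list had 3.70 and 1.33, while LUM had 5 and 0 counts in LGR5-high and 47 and 31 in LGR5-negative. In the endothelial and mural list VWF had -2.84 and ACTA2 had 2.08, and in the sebaceous list SCD had 1.08. The part of these cells in the values of the members was not tested.

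Over the 4 libraries, the genes most like the median profile of the members, by Euclidean distance of centred log2(CPM + 1) among 9646 genes, were ENOX1, LOC106510546, MAB21L3, DLL1 and STAC2, at distances of 0.033 to 0.11. DLL1, a Notch ligand, averaged 24.8 CPM with high and 101 CPM with negative LGR5. For the 3 members that did not fall, the nearest genes were sought after their values had been seen. IVL was nearest to IGFBP6 at 0.452 and then to SPINK5 at 0.466 among 9654 genes, and LY6G6C and TMEM238 were among the 5 nearest of both IVL and SPINK5. CDSN had no close match, since its nearest gene, LOC110257420, was at 1.62, followed by PSAPL1 at 1.64 and LGR6 at 1.82. These distances are a description over 4 libraries from 2 pigs.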

How the data were processed

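The authors deposited raw counts of reads per gene symbol for 4 libraries, without normalization. Poly(A) RNA was sequenced as paired-end reads, and the submitters' processing notes name Trimmomatic 0.36, STAR 2.5.2b and featureCounts of Subread 1.5.2. The genome build, annotation and strand setting are not given in the sources used here. One entry without a name, with 0.36% to 0.626% of counts, was left out. All fits ran in R 4.3.3. In edgeR 4.0.16, genes passed filterByExpr (minimum count 10, minimum total 15), and TMM scaling preceded the quasi-likelihood test on population alone, with a prior count of 0.125. Standard errors are the fold change over the square root of F. Fold changes per pig used a prior count of 2. A gene with 3 counts had 0.0873 to 0.105 CPM, a floor that covers counting error only.

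Same-numbered libraries come from 1 pig, and their deviations from population means correlated at 0.422. Alternatives used DESeq2 1.42.0, limma 3.58.1 (voom), Bonferroni adjustment, other scalings and filters, the pig as a replicate block, and leaving out each library. A further alternative was a Student's test per gene, the kind of test that the study's methods name. Its form here, unpaired on log2(CPM + 1) after TMM scaling, is not stated by the study. The fits were tested on simulated data. Each population has 2 libraries, 1 from each of 2 pigs. The edgeR p-values rest on a spread between libraries that is estimated with information shared across all tested genes. The Student's test uses the spread of each gene alone. The members and lists were chosen with earlier results of these data known. Genes were named in the text by a rule, and not every gene it gives was printed. It takes the members, in each list the 2 most abundant tested genes and the called genes with the highest and lowest fold change (all of a list of 6 or fewer), 3 neighbours on each side and the 5 most alike genes, apart from those said to be named after their values were seen. With FLG2 not analysed, the late set had 4 members. Plots used matplotlib 3.10.9.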

Additional observations from a re-analysis of the deposited data

How the results depend on the processing

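Against 6 lower and 1 higher member, the Student's test per gene called 3 lower and 0 higher, Bonferroni adjustment 2 and 0, and limma-voom 0 higher. The Student's test and Bonferroni adjustment called 544 and 194 genes higher and 502 and 130 lower in all, against 3632 and 3508, and library size only called 5473 and 2326. The study itself reported more genes in each direction than the Student's test or Bonferroni adjustment called here. With a replicate block for the pig in edgeR, whose pairing comes from the shared animal, 7 members were lower and 1 was higher, SPINK5 being the addition at -0.46. The block in DESeq2 gave 6 and 1, without SPINK5, and neither block fit changed another member's call. Leaving out 1 library at a time gave 6 to 7 lower and 0 to 1 higher members. The fold change of IVL changed sign with library size only, to 0.067, and without the LGR5-high or the LGR5-negative library of pig 88R, to 0.162 and 0.539, and with the libraries left out in turn it lay between -0.642 and 0.539. IVL was called in none of these. Of the 135 values of members under the alternatives, 119 kept their direction and side of the threshold, 11 lost the call, 2 gained one and 3 changed sign.

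The mean late minus early difference of 1.25 was 0.982 without KRTDAP, 0.827 without LY6D, 1.76 without IVL, 2.17 without TGM3, 1.85 without CASP14, -0.121 without CDSN and 1.92 with IVL and TGM1 counted as late. The ratio of sums, 0.272, was 1.18 without SBSN, 2.08 without TGM3, -0.174 without LY6D, -0.0287 without SPINK5 and -0.462 without CDSN. Over the 4 libraries left out in turn it lay between -0.176 and 0.719. The cause was not tested. Since each pig gave 1 library of each population, differences within each pig, as in a replicate block, have these same means of 1.25 and 0.272 by construction. The pigs gave 1.05 and 1.45 for the first and -0.361 and 0.905 for the second, so they differed in sign for the ratio of sums. Depth did not limit the members, which had at least 146 counts in every library, but with 2 pigs the spread between animals is known only roughly.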

Other observations

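The LGR5-high library of pig 95R was more than 5 times above each of the other 3 libraries for 5 tested genes with over 5 CPM there, a search made after the values of CDSN had been seen. Beside CDSN and the overlapping LOC110261492 these were NPW, SFTA2 and STAC. NPW, a neuropeptide gene, had 68 and 584 counts in LGR5-high of pigs 88R and 95R and 31 and 91 in LGR5-negative. SFTA2 had 21 and 211 counts in LGR5-high and 5 and 5 in LGR5-negative. STAC had 23 and 167 counts in LGR5-high and 1 and 0 in LGR5-negative. By the same measure the LGR5-high library of pig 88R stood above the others for 3 genes, LGALS3BP, ALDH3A1 and the interferon-stimulated gene MX1, none of which is a member. These values are a description, with no test.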
